A study of Homo sapiens with 6 samples.

Results

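The cytosolic ribosome is built from ribosomal RNA and a set of ribosomal proteins, most of them encoded by a single gene each, and the mRNAs of these genes are among the most abundant in growing cells. The genes described here are the protein-coding genes whose symbols begin with RPL or RPS followed by a number, together with RPSA, RPLP0, RPLP1 and RPLP2. The rule found 84 such genes among the 35385 genes to which the quantified transcripts were joined, 52 of the large subunit and 32 of the small subunit. Of these, 81 passed the filter on low counts, and RPL3L, RPL10L and RPL39L, paralogs with at most 8 estimated reads in any library, did not.

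RNA-seq was made from polyadenylated RNA of EoL-1 cells, a human line that grew out of the blood of a patient with eosinophilic leukaemia, in 3 ATF3 knockout libraries and 3 wild-type libraries. The ATF3 knockout cells were derived from EoL-1 with CRISPR/Cas9, and the wild-type cells are the line without that edit. The sample labels, followed here, call the edited cells a knockout, where the design text speaks of a knockdown. The labels do not say whether the 3 libraries of a group are cultures, clones or repeat preparations, so p-values cover the spread between these libraries, which may be technical.

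Vertebrate ribosomal protein mRNAs share a 5′ terminal oligopyrimidine (TOP) start: transcription begins at a C that is followed by an unbroken run of C and T. This start lets the cell hold back or release the whole set at the level of translation through mTOR and the RNA-binding protein LARP1, and it is shared with mRNAs of several translation factors. ATF3 is a bZIP transcription factor that cells induce under stress.

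The libraries held between 26766103 and 30117281 estimated reads in ATF3 knockout and between 29126474 and 30027410 in wild type. The targeted gene ATF3 (chr1:212565334-212620777, plus strand, GRCh38) held 146, 229 and 132 reads in the ATF3 knockout libraries, against 634, 462 and 632 in wild type. Its edgeR log2 fold change was -1.75 (SE 0.25, adjusted p = 0.00923), so its mRNA was lower but still present in every ATF3 knockout library. Wild-type replicate 2 lay apart from the other wild-type libraries: on the first principal component, which held 45.0% of the variance, the ATF3 knockout libraries scored -29.4, -34.8 and -20.9, and wild-type replicates 1, 2 and 3 scored 37.0, 11.9 and 36.3. The cell type label was eosinophil, but of 9 eosinophil markers CLC, IL5RA and GATA1 were at 0 in every library, and only RNASE2 and RNASE3 had enough reads to be tested. The summed level of that list was 113 to 177 CPM (read counts scaled by library size) in ATF3 knockout and 35.5 to 50.3 CPM in wild type, and both tested genes were called higher. The summed level of 7 neutrophil and granule markers was 916 to 1314 CPM in ATF3 knockout and 293 to 485 CPM in wild type, with 2 of 5 tested called higher and LTF at 0 throughout. For 5 monocyte and macrophage markers the sums were 581 to 881 CPM in ATF3 knockout and 149 to 390 CPM in wild type, with 2 of 4 tested called higher. Mast cell and basophil markers summed to 0.0665 to 1.76 CPM in ATF3 knockout and 0.0708 to 1.02 CPM in wild type, and erythroid and megakaryocyte markers to 0.898 to 1.94 CPM in ATF3 knockout and 0.385 to 0.648 CPM in wild type. HBB, HBA1, PF4, CPA3 and HDC were at 0 in every library. Lymphocyte markers summed to 122 to 161 CPM in ATF3 knockout and 105 to 125 CPM in wild type, nearly all of it NKG7, with CD3E and MS4A1 at 0. The 5 proliferation markers summed to 1096 to 1375 CPM in ATF3 knockout and 1292 to 1405 CPM in wild type, and 1 of them, MCM6, was called lower. The part of these lists in the ribosomal protein results was not tested.

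The mRNAs of 32 of 81 tested ribosomal protein genes, of both subunits, fell in ATF3 knockout relative to wild type, and most of the others had small negative fitted changes that did not pass the test. With edgeR's quasi-likelihood test and Benjamini-Hochberg adjustment over all 13279 genes tested, 32 of 81 ribosomal protein genes (39.5%) passed an adjusted p of 0.05 as lower, against 9.96% of all genes tested. None of the 81 passed as higher at that threshold in edgeR, against 11.7% of all genes tested; at an unadjusted p under 0.05, 57 were lower, and RPS27L was called higher by DESeq2. The fitted change was negative for 77 genes and positive for 4. The median log2 fold change was -0.25, a level 16.1% lower, with quartiles of -0.31 and -0.21, while the median over all genes tested was 0.01, with quartiles of -0.22 and 0.26. With library totals alone as the scaling, which put the median of all genes at 0.05, 26 ribosomal protein genes were called lower and 1 higher, and the calls over all genes shifted to 1037 lower and 1940 higher, against 1322 lower and 1553 higher with TMM. In bulk RNA such as this, fewer cells of a kind and less RNA per cell cannot be told apart.

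All ATF3 knockout libraries lay below all wild-type libraries for 68 of the 81 genes, against 21.5% of all genes tested, and above them for 1, RPS27L, against 22.4%. The ATF3 knockout libraries differed among themselves in how far they lay below. The median ribosomal protein gene stood at -0.22, -0.44 and -0.15 in ATF3 knockout replicates 1, 2 and 3 and at -0.02, -0.02 and 0.04 in wild-type replicates 1, 2 and 3, on the log2 scale relative to the wild-type mean. Replicate 2 was the lowest of the ATF3 knockout libraries for 75 genes and replicate 3 the highest for 69. The median over all genes tested stayed between 0.00 and 0.01 in the ATF3 knockout libraries, so the scaling of the libraries placed the typical gene at the same level.

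**Figure D1:**
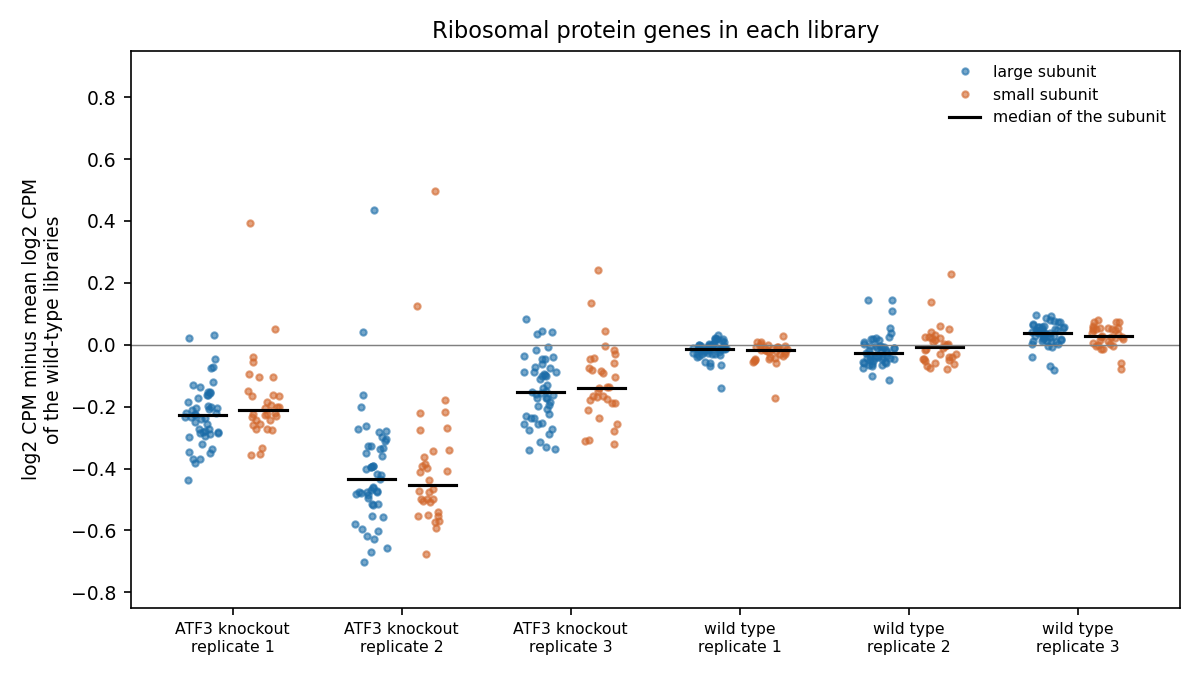
Each point is a ribosomal protein gene in a library, plotted as log2 CPM minus the mean log2 CPM of the 3 wild-type libraries, for the large (blue) and small (orange) subunit, with black bars at the medians. The points of all 3 ATF3 knockout libraries lie mostly below 0, furthest in replicate 2, and the highest points in ATF3 knockout are RPS27L and, in replicate 2, RPL22L1.

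The count of called genes depended on which libraries entered the fit, while the sign of most changes did not. Without ATF3 knockout replicate 1 the edgeR test called 6 genes lower, without replicate 2 it called 27, and without replicate 3 it called 54. Without wild-type replicate 1 or 3 it called 0, and without wild-type replicate 2 it called 14. At the settings with 0 calls, 44 genes without wild-type replicate 1 and 37 without wild-type replicate 3 were lower at an unadjusted p under 0.05, and DESeq2 called 26 and 22 genes lower. Over these 6 fits 77 or 78 of the 81 fitted changes were negative, and the median log2 fold change ran from -0.34 to -0.18. Every ribosomal protein gene of the set named below as called therefore lost its call without wild-type replicate 1 and without wild-type replicate 3.

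The genes with the largest falls came from both subunits. RPL36 (ENSG00000130255.12, chr19:5674947-5691876, plus strand), a protein of the large subunit, had 798, 663 and 854 CPM in ATF3 knockout, against 1093, 999 and 1155 CPM in wild type. Its log2 fold change was -0.49, with SE 0.10 and an edgeR adjusted p of 0.0211. The ranges of the groups did not overlap, and the highest ATF3 knockout value was below the lowest in wild type.

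RPL9 (chr4:39452521-39458949, minus strand), whose protein lies near the base of the stalk of the large subunit, had 1430.4, 1161 and 1512 CPM in ATF3 knockout, against 1832, 1791 and 1921 CPM in wild type. It fell by 0.43 (SE 0.10, edgeR adjusted p = 0.0265), with the ATF3 knockout libraries all below those of wild type. RPL9 shares reads with its pseudogenes, which held 72.6% as many reads as the gene, and with the pseudogene reads added its log2 fold change was -0.44. RPL35 (chr9:124857880-124861981, minus strand), a protein at the exit of the peptide tunnel, had 1024, 880.5 and 1025 CPM in ATF3 knockout, against 1289, 1256 and 1340.4 CPM in wild type. It fell by 0.41 (SE 0.08, edgeR adjusted p = 0.0144), and again every ATF3 knockout library lay below every wild-type library.

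RPL13 (chr16:89560657-89566828, plus strand), a protein of the large subunit, had 2041, 1589.8 and 2099 CPM in ATF3 knockout, against 2513, 2392 and 2612 CPM in wild type. Its log2 fold change was -0.39 (SE 0.11, edgeR adjusted p = 0.0441), near the threshold, and the groups did not overlap. In the small subunit, RPS18 (chr6:33272010-33276510, plus strand), a protein of the head, had 2866, 2289 and 3016 CPM in ATF3 knockout, against 3639, 3488 and 3852 CPM in wild type. It fell by 0.43 (SE 0.11, edgeR adjusted p = 0.0328), with no overlap between the groups. RPS3A (chr4:151099573-151104652, plus strand), a protein of the small subunit's platform side that faces initiation factors, had 3414, 2848 and 3441 CPM in ATF3 knockout, against 4306, 4076 and 4523 CPM in wild type. It fell by 0.41 (SE 0.09, edgeR adjusted p = 0.0206), and its lowest wild-type value was above its highest ATF3 knockout value. Without ATF3 knockout replicate 1, RPL36, RPL9, RPL13 and RPS18 lost their calls while RPS3A and RPL35 kept them, and RPL13 and RPS18 also lost theirs without wild-type replicate 2. Of these 6 genes RPL13 alone was not called with an offset for effective length (edgeR adjusted p = 0.0699). With protein-coding transcripts alone RPL13 did not pass (edgeR adjusted p = 0.0538). That setting also drops transcript copies on alternate scaffolds, which have no biotype here and held 99.97% of the RPS18 reads. RPS18 then had a log2 fold change of -1.67 (SE 1.70, edgeR adjusted p = 0.522) on the few reads left. That fit therefore cannot speak to the coding transcripts of RPS18.

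The first bases of these genes are shown because they hold the TOP start. Sequences are from RefSeq on GRCh38.p14, read on the strand of the gene, 5′ to 3′. Each gives 15 bases before a listed transcription start and 15 from it on, and capitals mark the unbroken run of C and T that begins at the first transcribed base. Where a gene had several listed starts, the start with the longest such run was picked. The runs shown were thus selected for that feature. The 6 genes with the largest falls and RPS6 come first, then the 4 genes with a positive fitted change.
RPL36 at chr19:5690280-5690309, plus strand: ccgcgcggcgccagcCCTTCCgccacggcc
RPL9 at chr4:39458908-39458937, minus strand: gtacgtaatgacgacagacgttctttcttt
RPS18 at chr6:33272060-33272089, plus strand: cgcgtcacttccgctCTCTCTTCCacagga
RPS3A at chr4:151099613-151099642, plus strand: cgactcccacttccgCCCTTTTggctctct
RPL35 at chr9:124861943-124861972, minus strand: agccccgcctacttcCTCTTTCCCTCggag
RPL13 at chr16:89560667-89560696, plus strand: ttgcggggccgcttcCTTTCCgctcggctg
RPS6 at chr9:19380222-19380251, minus strand: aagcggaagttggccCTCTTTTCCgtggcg
RPS27L at chr15:63157463-63157492, minus strand: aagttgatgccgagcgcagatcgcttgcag
RPL22L1 at chr3:170870181-170870210, minus strand: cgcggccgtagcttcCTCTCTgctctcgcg
RPS26 at chr12:56041903-56041932, plus strand: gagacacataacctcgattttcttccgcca
RPL6 at chr12:112411428-112411457, minus strand: tatttgtatcctcagTgaatcagaaccaga
RPL36, RPS18, RPS3A, RPL35, RPL13, RPS6 and RPL22L1 hold such a run at the listed start, and RPL9, RPS27L, RPS26 and RPL6 do not.

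A start was listed for 67 of the 84 genes, and a gene was counted where any of its listed starts held the pattern. A C at the first base followed by C or T through base 5 was found in 47 of the 67 (70.1%), against 5.14% of the 27305 genes with a listed start. Among the genes called lower it was found in 14 of 23 (60.9%), and among the genes tested but not called in 33 of 43 (76.7%). The median log2 fold change was -0.25 over the 47 tested genes with this start and -0.23 over the 19 with another listed start, so the size of the change was close in both.

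Further motifs were sought on both strands of the listed windows, 250 bases before to 50 after the start. A gene was counted where any of its windows held the motif, so a gene with more listed starts had more chances. TGACGTCA, the letters of the cyclic AMP response element that ATF proteins can bind, was found for 3 of 67 genes (4.48%), against 2.25% of all genes with a listed start. TGACTCA, the letters of the AP-1 site, was found for 1 gene (1.49%), against 6.05% of all. CCGGAAG, letters found in sites of ETS family factors, was found for 24 genes (35.8%), against 12.2% of all. The first and second of these share their first 4 letters, so a base can lie in matches to both. Among the genes called lower, TGACGTCA was in 0 of 23 with a listed start, TGACTCA in 0 and CCGGAAG in 6 (26.1%). Among the genes tested but not called, the 3 motifs were in 3, 1 and 18 (41.9%) of 43. A match describes letters alone.

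**Figure D2:**
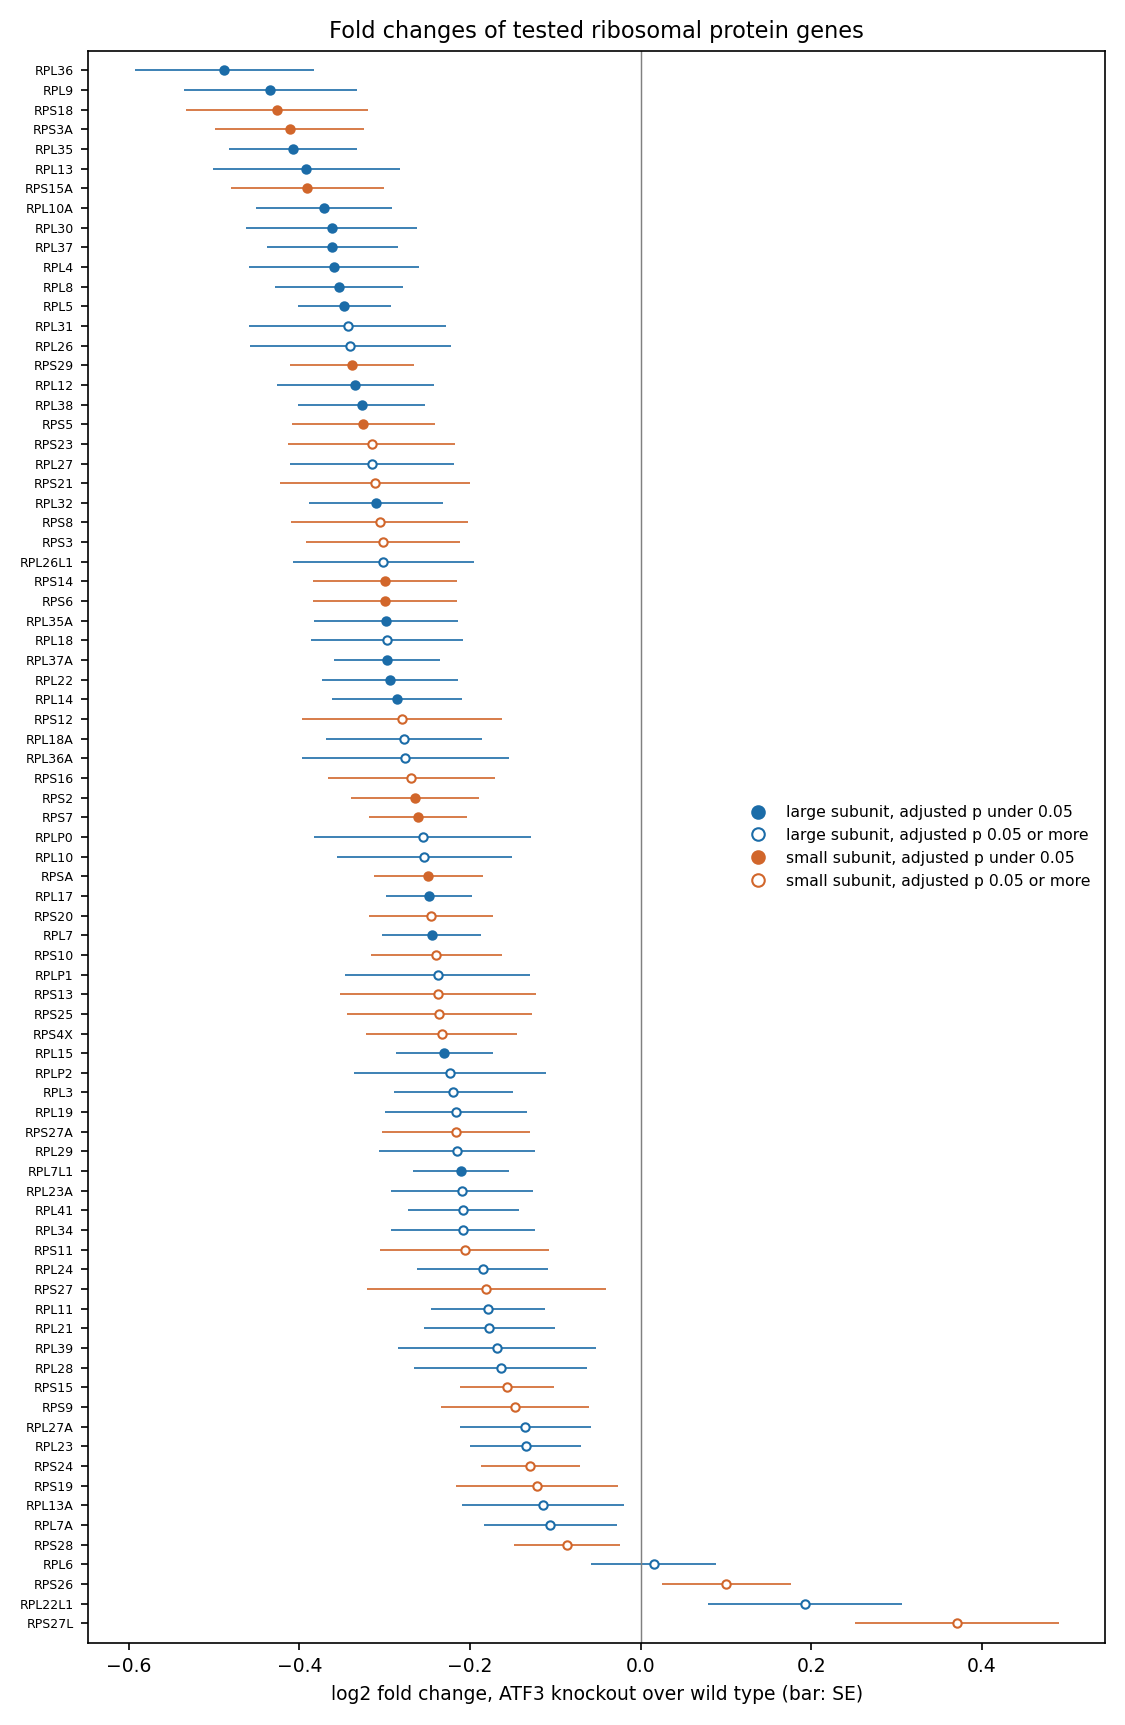
Log2 fold change of the tested ribosomal protein genes reported here, ATF3 knockout over wild type, with bars of 1 SE; filled points passed an edgeR adjusted p of 0.05. Most genes lie between -0.49 and -0.09, filled points of both subunits are spread over the lower part of that range, and RPL6, RPS26, RPL22L1 and RPS27L lie above 0.

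The genes on both sides of the threshold had like values. RPS2 (adjusted p = 0.0456) and RPL35A (adjusted p = 0.0457) were the last edgeR calls, with log2 fold changes of -0.26 and -0.30. RPS20 (adjusted p = 0.0521) and RPS3 (adjusted p = 0.0536) were the first genes past it, with log2 fold changes of -0.25 and -0.30.

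The medians of the large and small subunit lay close together, with a difference of -0.01 on the log2 scale. In the large subunit 21 of 49 tested genes were called lower and the median log2 fold change was -0.26, with quartiles of -0.33 and -0.21. In the small subunit 11 of 32 were called lower and the median was -0.25, with quartiles of -0.30 and -0.20. Left without their paralogs, 20 of 46 large subunit genes and 11 of 31 small subunit genes were called lower, with medians of -0.27 and -0.25. By library, the large subunit genes had medians of -0.23, -0.43 and -0.15 in ATF3 knockout replicates 1, 2 and 3, and the small subunit genes had -0.21, -0.45 and -0.14.

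Ribosomal protein genes held a lower share of all TPM, the authors' unit of level per transcript length, in ATF3 knockout than in wild type. The share was 26.0, 22.8 and 26.6% in ATF3 knockout, against 29.1, 28.7 and 29.8% in wild type. The means were 25.1 ± 2.04% in ATF3 knockout and 29.2 ± 0.549% in wild type (SD, n = 3 each), a difference of -4.09 percentage points, and the ranges did not overlap. The large subunit held 13.9 ± 1.07% in ATF3 knockout and 16.0 ± 0.287% in wild type, and the small subunit 11.2 ± 0.973% in ATF3 knockout and 13.2 ± 0.263% in wild type (SD, n = 3 each). As a share of reads, which favours long mRNAs, the genes held 10.9, 9.55 and 11.4% in ATF3 knockout and 12.3, 12.2 and 12.6% in wild type.

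**Figure D3:**
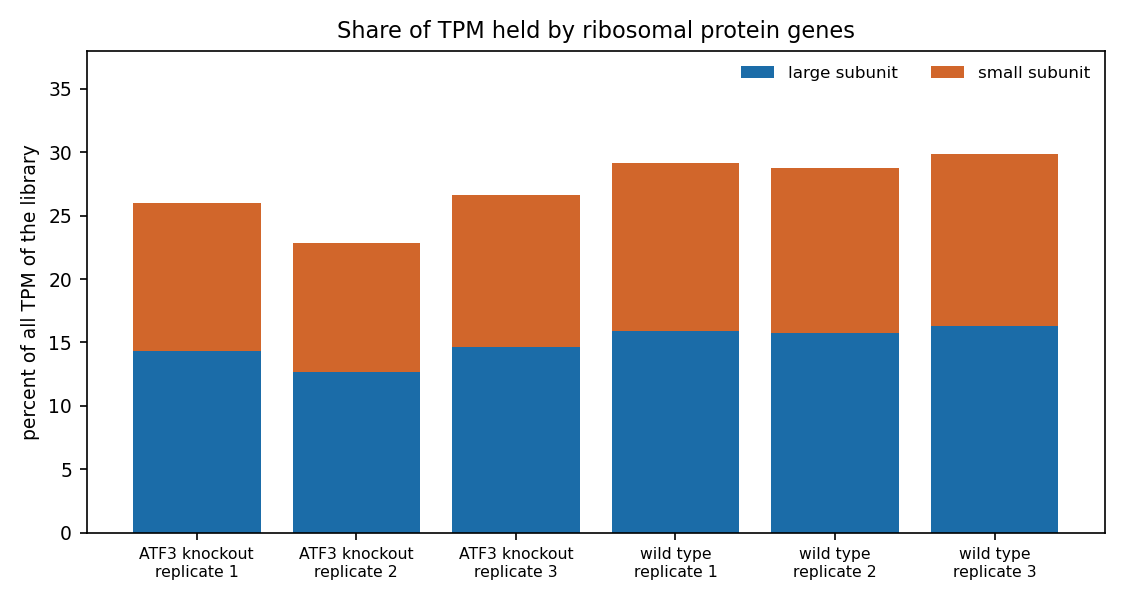
Share of all TPM held by ribosomal protein genes in each library, in percent, with the large subunit in blue below and the small subunit in orange above. The ATF3 knockout bars reach 22.8 to 26.6% and the wild-type bars 28.7 to 29.8%.

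The ratio of the summed TPM of the subunits moved little. On the log2 scale, large over small was 0.29, 0.32 and 0.30 in ATF3 knockout, against 0.27, 0.28 and 0.27 in wild type. The mean difference was 0.03, and its sign depended on the weighting, since the mean log2 CPM of the large subunit genes less that of the small subunit genes differed by -0.03 between the groups.

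RPS18 had the highest listed TPM, which averaged 19779 ± 1932 TPM in ATF3 knockout and 26067 ± 894 TPM in wild type (SD, n = 3 each). That value rests on a transcript of 212 bases that held 5.97% of the reads of the gene, and whose deposited effective length is short, so the TPM of RPS18 is not comparable with the others; without RPS18 the whole share was 24.0, 21.0 and 24.5% in ATF3 knockout and 26.5, 26.2 and 27.1% in wild type. The highest of the other genes was RPL41, the smallest ribosomal protein, with 6974, 7407 and 8210.1 TPM in ATF3 knockout, against 8168, 7793 and 8196 TPM in wild type, where the groups overlap.

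RPS3, a protein at the mRNA entry channel, had 6778, 5869.7 and 6936 TPM in ATF3 knockout, against 7739, 7556 and 7967 TPM in wild type. RPS6, the protein that S6 kinase phosphorylates, had 4136, 3563 and 4381 CPM in ATF3 knockout, against 4942, 4787 and 5138 CPM in wild type. RPS6 fell by 0.30 (SE 0.08, edgeR adjusted p = 0.0447), with no overlap, while RPS3 (log2 fold change -0.30, SE 0.09, adjusted p = 0.0536) and RPL41 (log2 fold change -0.21, SE 0.07, adjusted p = 0.0609) did not pass. The means of RPL41, RPS3, RPS6 and RPS3A, 7791, 7141, 6820 and 6530.5 TPM over all libraries, are close neighbours, and the library ranges of each overlap those of the next. The median tested gene had 2799 TPM, 76 of 81 had at least 1000 TPM, and the lowest, the paralog RPL26L1, had 81.4 TPM.

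Across the 81 genes the fitted log2 change and the log2 of the mean TPM had a Pearson r of -0.49 and a Spearman rho of -0.22. RPS26, RPL7L1, RPS27L, RPL22L1 and RPL26L1 lay apart at 81.4 to 246 TPM, and RPL22 was next at 1110 TPM. Of these low genes RPS26, RPS27L and RPL22L1 had positive fitted changes, and RPL7L1 and RPL26L1 negative ones. RPS18, whose TPM is not comparable, lay at the other end. No r was computed without these genes. The genes share their libraries and are not independent. With transcript length on the log2 scale r was 0.16 and rho was 0.12, and with GC percent, over 80 genes, r was -0.25 and rho was -0.07. Ribosomal protein genes are short, with a median transcript length of 725 bases, against 2753 bases over all genes tested.

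The proteins RPLP0, RPLP1 and RPLP2 form the acidic stalk that recruits translation factors, and none of the 3 genes passed the test. RPLP0 had 3189, 2533 and 3625 CPM in ATF3 knockout, against 3673, 3538 and 3945 CPM in wild type, and the groups overlapped because ATF3 knockout replicate 3 was within the wild-type range. RPLP1 had 1152, 964 and 1297 CPM in ATF3 knockout, against 1328, 1287 and 1409.8 CPM in wild type, with the same overlap. RPLP2 had 765, 611 and 838 CPM in ATF3 knockout, against 859.9, 839 and 885 CPM in wild type, where the groups met without overlap. Their log2 fold changes were -0.26, -0.24 and -0.22 with edgeR adjusted p-values of 0.189, 0.158 and 0.195, close to the median of all ribosomal protein genes.

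RPL5 and RPL11 join 5S ribosomal RNA in a particle that, when free, binds MDM2, the ligase that degrades p53. RPL5 had 1425, 1312 and 1393 CPM in ATF3 knockout, against 1744, 1742 and 1768 CPM in wild type. RPL5 fell by 0.35 (SE 0.05, edgeR adjusted p = 0.0104), the smallest p of the set, and its libraries lay close together within each group. RPL11 had 1145, 1014 and 1161 CPM in ATF3 knockout, against 1239, 1244 and 1276 CPM in wild type. Its log2 fold change was -0.18 (SE 0.07, edgeR adjusted p = 0.0985), with no overlap between the groups but no call.

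Of 9 genes whose proteins line the peptide exit tunnel or lie around its opening, 4 were called lower and none higher, and their median log2 fold change was -0.29. The share called lower was 39.5% over all ribosomal protein genes and 9.96% over all genes tested. RPL17 had 900.5, 876 and 911 CPM in ATF3 knockout, against 1044, 1081 and 1067 CPM in wild type, and fell by 0.25 (SE 0.05, edgeR adjusted p = 0.0187). RPL35, given above, RPL22 and RPL4 were the others called, and RPL4 had a log2 fold change of -0.36 (SE 0.10, edgeR adjusted p = 0.0435). RPL26, RPL31, RPL19, RPL23A and RPL39 had log2 fold changes between -0.34 and -0.17 and did not pass.

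Of 5 small subunit genes grouped here under mRNA entry and decoding, RPS2 alone was called lower in edgeR, and the median log2 fold change was -0.28. The place of RPS12 in this group is less sure, and the median is its own value. RPS2 had 3199.65, 2950.3 and 3521 CPM in ATF3 knockout, against 3852, 3768 and 3999.8 CPM in wild type. For RPS3, RPS23, RPS15 and RPS12 the log2 fold changes lay between -0.31 and -0.16. For all 5 genes every ATF3 knockout library lay below every wild-type library, as for 68 of 81 ribosomal protein genes and 21.5% of all genes tested.

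Of 18 genes mutated in Diamond-Blackfan anaemia, an inherited failure of red cell production, 7 were called lower and none higher, with a median log2 fold change of -0.25. Among those called were RPL5, RPL15, RPL35, RPL35A, RPS7 and RPS29. RPS29 had 278, 237 and 266 CPM in ATF3 knockout, against 321, 332 and 336 CPM in wild type, and fell by 0.34 (SE 0.07, edgeR adjusted p = 0.0209). RPS19, the gene most often mutated in that disease, had a log2 fold change of -0.12 (adjusted p = 0.393) and overlapping groups. The share called, 38.9%, is close to that over all ribosomal protein genes.

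Paralogs, which stand in for a ribosomal protein in some tissues or have roles of their own, did not move together. RPS27L, a paralog of RPS27 known in human cells as a target of p53, had 85.5, 92.0 and 76.9 CPM in ATF3 knockout, against 57.8, 76.3 and 62.6 CPM in wild type. Its log2 fold change was 0.37 (SE 0.12, edgeR adjusted p = 0.0653), above 0 but not called, and the lowest ATF3 knockout value stood only just above the highest wild-type value. RPS27 itself had 959, 709 and 1063 CPM in ATF3 knockout, against 997, 1034 and 1066 CPM in wild type, with a log2 fold change of -0.18 (adjusted p = 0.388). Without wild-type replicate 2, the wild-type library highest in RPS27L, the edgeR value for RPS27L was 0.49 (adjusted p = 0.0243) and it counted as called.

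RPL22L1, a paralog of RPL22, had 58.0, 76.8 and 60.1 CPM in ATF3 knockout, against 58.1, 58.3 and 54.2 CPM in wild type. Only ATF3 knockout replicate 2 stood apart, the groups overlapped, and the log2 fold change of 0.19 (SE 0.11, edgeR adjusted p = 0.261) did not pass. RPL22 had 659, 563 and 676 CPM in ATF3 knockout, against 775, 760.2 and 790.4 CPM in wild type, and fell by 0.29 (SE 0.08, edgeR adjusted p = 0.0404). The 2 genes thus had their most extreme values, high for the paralog and low for RPL22, in the same library. This is not particular to the pair. ATF3 knockout replicate 2 was the lowest ATF3 knockout library for 75 of 81 genes, among them all 7 parents of the paralogs. It was also the highest ATF3 knockout library for RPS27L and RPL26L1.

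RPL7L1, a paralog of RPL7 with a part in making ribosomes, had 571, 547 and 597 CPM in ATF3 knockout, against 662, 650.2 and 672 CPM in wild type. RPL7L1 fell by 0.21 (SE 0.06, edgeR adjusted p = 0.0396), and RPL7 fell by 0.25 (SE 0.06, edgeR adjusted p = 0.0285), both without overlap. The call of RPL7L1 lay near the threshold and was lost with library totals alone, with no filter, with an effective length offset, with the GC trend removed and with protein-coding transcripts alone, at edgeR adjusted p-values of 0.0535 to 0.0675. It was also lost with the replicate block (edgeR adjusted p = 0.0519) and without any 1 library other than ATF3 knockout replicate 3 (edgeR adjusted p up to 0.148). RPL26L1 had 13.0, 14.7 and 13.6 CPM in ATF3 knockout, against 15.4, 18.7 and 16.9 CPM in wild type, with a log2 fold change of -0.30 (adjusted p = 0.0844), and RPL26 had -0.34 (adjusted p = 0.0802). Neither RPL26 nor its paralog passed. Of the other genes with a paralog, RPL3 (log2 fold change -0.22, adjusted p = 0.0637), RPL10 (log2 fold change -0.25, adjusted p = 0.119) and RPL39 (log2 fold change -0.17, adjusted p = 0.334) did not pass either.

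**Figure D4:**
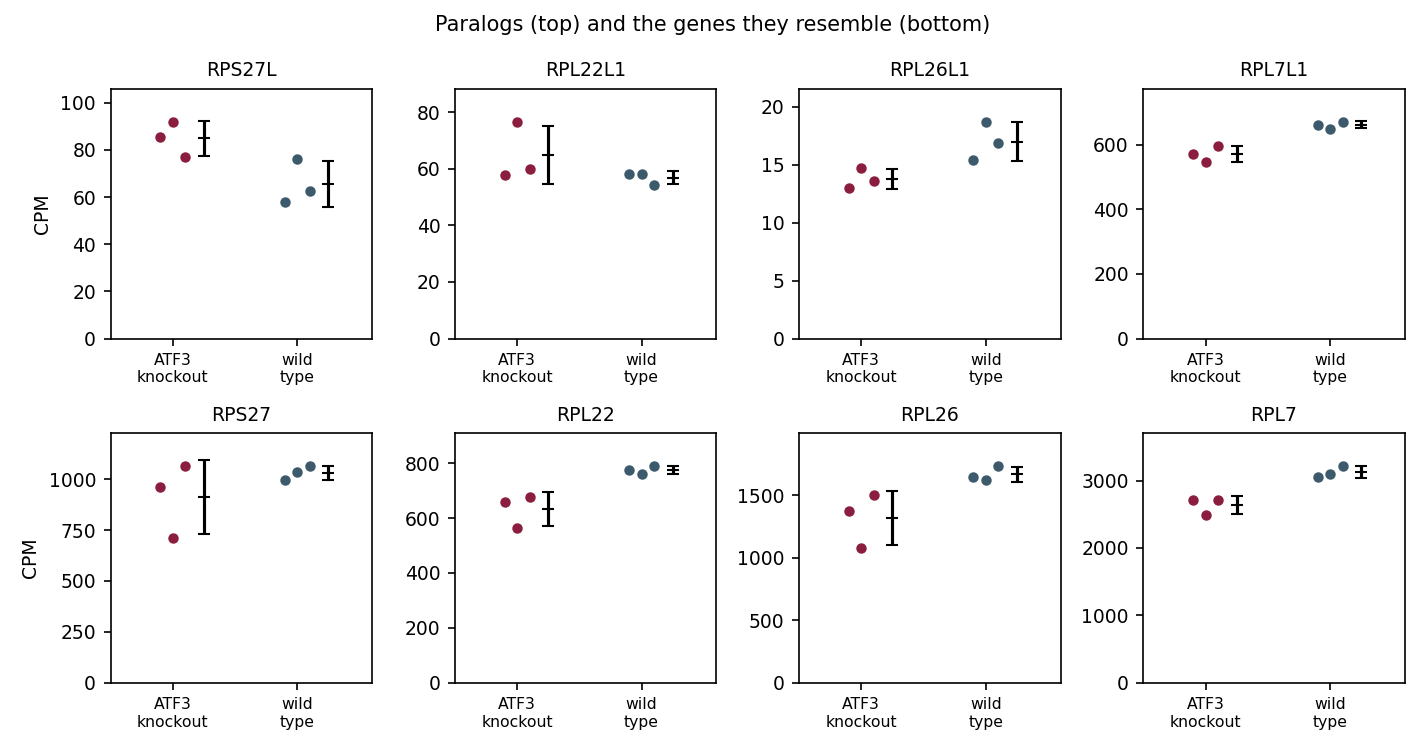
CPM of 4 paralogs (top row) and of the genes they resemble (bottom row) in the 3 ATF3 knockout libraries (left in each panel) and the 3 wild-type libraries (right), with mean and SD beside the points; each axis starts at 0. RPS27L is higher in all ATF3 knockout libraries, RPL22L1 overlaps between groups, and RPL26L1, RPL7L1, RPL22, RPL26 and RPL7 are lower in all of them.

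RPS26 and RPL6 were the other genes without a negative change. RPS26, a protein at the mRNA exit channel, lay between 109.9 and 116 CPM in ATF3 knockout and between 100.45 and 117 CPM in wild type, with a log2 fold change of 0.10 (adjusted p = 0.377). RPL6 had 1260.2, 1278 and 1235 CPM in ATF3 knockout, against 1187, 1373 and 1174 CPM in wild type, with a log2 fold change of 0.02 (adjusted p = 0.904). In both genes the groups overlapped and wild-type replicate 2 was the highest wild-type library. RPS28, RPL7A, RPL13A and RPS19 were the next nearest to 0, with log2 fold changes between -0.12 and -0.09 and overlapping groups.

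Of 4 ribosomal components outside the symbol rule, RACK1 was called lower, and FAU and RPL36AL were not called. RACK1, a scaffold protein on the head of the small subunit, had 2179, 1748 and 2345 CPM in ATF3 knockout, against 2985, 2762 and 3132 CPM in wild type. RACK1 fell by 0.50 (SE 0.11, edgeR adjusted p = 0.0242), with no overlap, and lost its call without ATF3 knockout replicate 1, wild-type replicate 1 or wild-type replicate 3. FAU, which encodes a ribosomal protein fused to a ubiquitin-like protein, had a log2 fold change of -0.17, and RPS27A, a ubiquitin fusion and part of the set, had -0.22 (adjusted p = 0.117).

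Of 18 other genes known to carry a TOP start, which encode translation factors and abundant proteins, 8 were called lower, against 9.96% of all genes tested, and none higher. Their median log2 fold change was -0.27, and that of EIF4B and VIM was above 0, at 0.02 and 0.05. NPM1, a nucleolar chaperone of ribosome assembly, had 1117, 1140.2 and 1189 CPM in ATF3 knockout, against 1706, 1525 and 1719.7 CPM in wild type, and fell by 0.52 (SE 0.07, edgeR adjusted p = 0.00814). EIF3E, a subunit of initiation factor 3, fell by 0.45 (SE 0.07, edgeR adjusted p = 0.0108), and NAP1L1, a histone chaperone, fell by 0.41 (SE 0.08, edgeR adjusted p = 0.019). For 16 of the 18 every ATF3 knockout library lay below every wild-type library, against 21.5% of all genes tested, and for EIF4B and VIM the groups overlapped. NPM1 kept its call with any 1 library left out, while EIF3E and NAP1L1 lost theirs without wild-type replicate 1 and without wild-type replicate 3. Of 12 with a listed start, 10 held the C and pyrimidine run.

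Genes that regulate TOP mRNAs had no common direction, with a median log2 fold change of -0.00 over 15 genes, of which 5 were called lower, against 9.96% of all genes tested, and none higher. SESN2, an inhibitor of mTOR complex 1 under amino acid stress, had 58.3, 40.4 and 53.2 CPM in ATF3 knockout, against 147, 103 and 152 CPM in wild type, and fell by 1.40 (SE 0.19, edgeR adjusted p = 0.00863). EIF4EBP1, a repressor of cap-dependent translation that mTOR inactivates, had 179, 157 and 195 CPM in ATF3 knockout, against 273, 267 and 291 CPM in wild type, and fell by 0.65 (SE 0.09, edgeR adjusted p = 0.00891). MLST8, a subunit of the mTOR complexes, fell by 0.58 (SE 0.10, edgeR adjusted p = 0.012). The other calls, named after their values were seen, were DDIT4, a further mTOR inhibitor, with a log2 fold change of -1.23, and LARP1, with -0.34. SESN2 and EIF4EBP1 kept their calls with any 1 library left out. MLST8, DDIT4 and LARP1 lost theirs without wild-type replicate 1 and without wild-type replicate 3, and DDIT4 also without ATF3 knockout replicate 1. MTOR, RPTOR, RHEB, TSC1, TSC2 and both S6 kinase genes were not called.

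Of 8 chaperones that guard single ribosomal proteins before assembly, PDCD2, the chaperone of RPS2, and LTV1, an assembly factor of the small subunit head, were called lower, against 9.96% of all genes tested. PDCD2 had 142, 138 and 159 CPM in ATF3 knockout, against 186, 171 and 201 CPM in wild type, with a log2 fold change of -0.34 (SE 0.09, edgeR adjusted p = 0.0321). LTV1 had a log2 fold change of -0.29 (SE 0.07, edgeR adjusted p = 0.0348). PDCD2 kept its call without ATF3 knockout replicate 3 or wild-type replicate 2, and LTV1 without ATF3 knockout replicate 1, and each lost it without any other library. The median over the 8 was -0.01, and TSR2, HEATR3, GRWD1, BCCIP, PDCD2L and RPS19BP1 were not called.

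By reads, the mix of transcripts within the set was nearly the same in both groups. Transcripts annotated in a non-coding biotype, such as retained introns and targets of nonsense-mediated decay, took 18.9 ± 0.253% of the reads of the set in ATF3 knockout and 18.9 ± 0.0875% in wild type (SD, n = 3 each). As a share of TPM, such transcripts took 21.60, 21.73 and 22.08% in ATF3 knockout, against 21.50, 21.57 and 21.41% in wild type. For 23 of 81 genes the ATF3 knockout shares of reads all lay above the wild-type shares, and for 5 genes they all lay below. No such count was made over all genes, so neither count can be called particular to this set. In RPLP0 they took 11.2, 10.5 and 11.6% of the reads in ATF3 knockout, against 15.2, 14.5 and 14.5% in wild type. In RPL13A they took 57.5, 55.4 and 57.8% in ATF3 knockout, against 61.9, 59.7 and 62.0% in wild type. In RPL8 they took 17.6, 17.8 and 18.6% in ATF3 knockout, against 15.4, 15.1 and 16.4% in wild type, and in RPS29 they took 9.57, 12.1 and 12.4% in ATF3 knockout, against at most 8.40% in wild type. These genes were picked after their values were seen, the division of reads between transcripts of a gene is an estimate, and no test was made. In RPS27 all joined reads were assigned to transcripts annotated in such biotypes, so its level is that of transcripts so annotated. Over 50% of the reads lay on them in every library for 12 genes, among them RPL41, RPS3, RPS28, RPS13, RPL37 and RPL13A, whose levels are likewise mostly those of such transcripts.

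Ribosomal proteins have many processed pseudogenes, and reads can be placed on either copy. The 1596 pseudogenes named for these genes held 0.288, 0.245 and 0.297% of the reads in ATF3 knockout and 0.324, 0.316 and 0.331% in wild type, which is 2.57 to 2.65% of the reads of the genes themselves in ATF3 knockout and 2.60 to 2.64% in wild type. The share was largest for RPS28, whose pseudogenes held more reads than the gene (111%), then RPL9 (72.6%), RPL22 (26.8%), RPL36A (23.3%) and RPL39 (17.4%). With the reads of the pseudogenes added to their genes, 32 genes were again called lower. The levels of RPS28 and RPL9 are uncertain to that degree.

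Some of the genes overlap neighbours, and since the strand setting of the quantification is not known here, reads of genes on opposite strands may be shared. RPL36 shares 43 exonic bases with LONP1 on the opposite strand and 400 with HSD11B1L on the same strand. LONP1 held 66322 reads in all libraries and HSD11B1L 272, against 158984 for RPL36. RPL9 shares 363 exonic bases with LIAS on the opposite strand, which held 5989 reads, against 275795 for RPL9. RPL17 shares 611 with the read-through gene RPL17-C18orf32, which held 304 reads, against 167979 for RPL17.

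**Figure D5:**
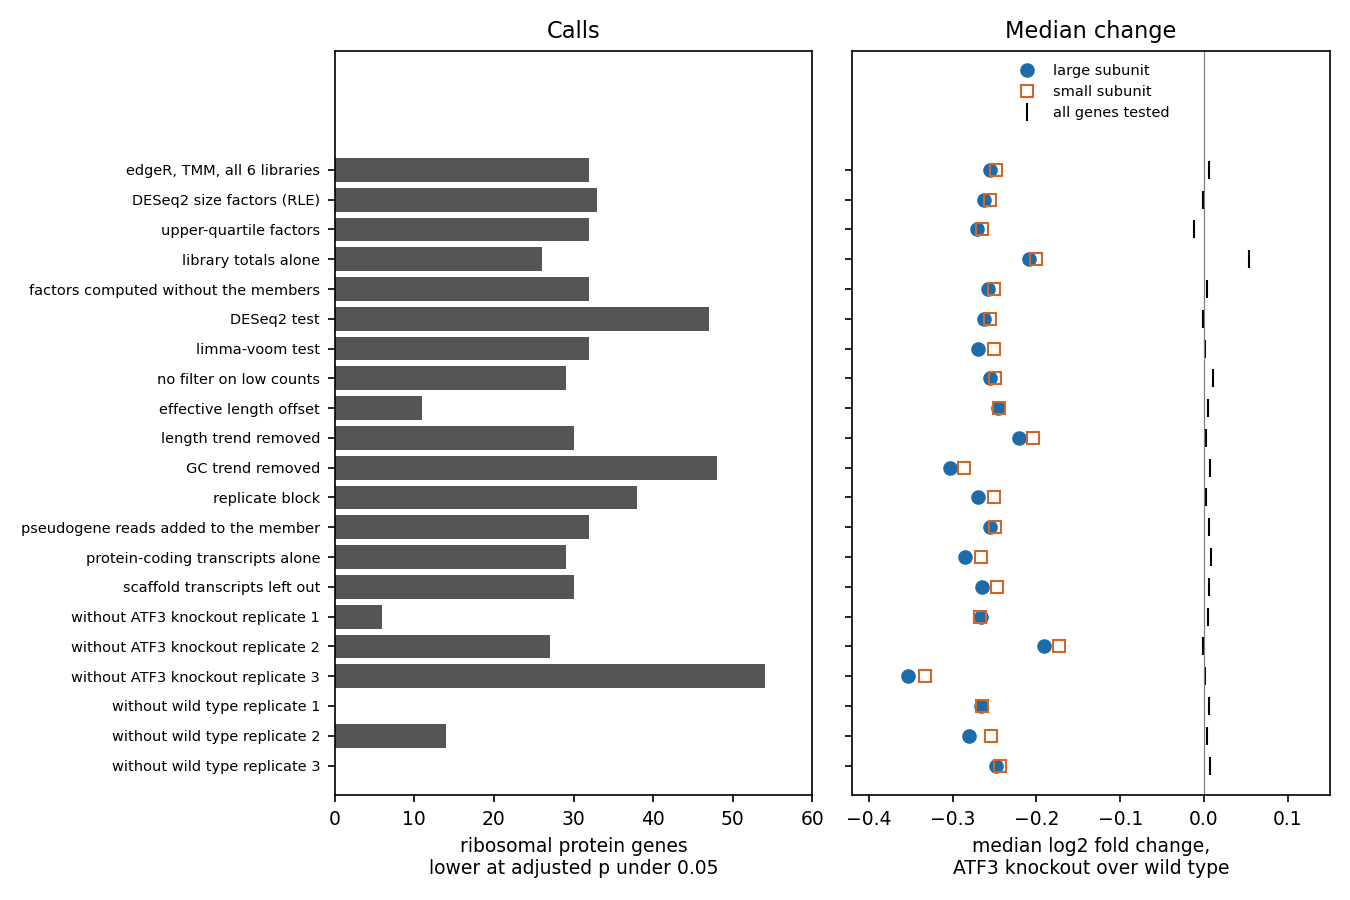
Number of ribosomal protein genes called lower (left, adjusted p under 0.05) and median log2 fold change, ATF3 knockout over wild type, of the large subunit (blue circles), small subunit (orange squares) and all genes tested (black ticks, right) under each way of fitting the data. The median of both subunits stays below that of all genes under each of them, while the count runs from 0 to 54.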

How the data were processed

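The authors deposited a Salmon transcript table per library with estimated counts, TPM, lengths and effective lengths, per the file headers. The submitters' processing notes name Salmon 1.6.0, FastQC 0.11.9 and hg38. For the transcriptome release, strand setting and bias options, the sources used here give nothing. The deposited TPM were used as values alone.

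Of 177456 transcripts, 167027 were joined by identifier to the GENCODE 29 annotation of GRCh38. A further 7621, copies on alternate scaffolds with 2.71 to 3.00% of the reads, took their gene symbol from the GENCODE metadata, because nearly all reads of RPL7A, RPS18 and RPS9, among others, lay on them. The remaining 2808, with 0.767 to 0.872% of the reads, stayed out. Estimated counts were summed per gene and rounded to whole numbers. All 6 libraries entered the quasi-likelihood test of edgeR 4.0.16 under R 4.3.3 (glmQLFit, then glmQLFTest), with the group as sole term and TMM scaling. The filter was filterByExpr with 10 as its minimum count, and p-values were adjusted by Benjamini-Hochberg over 13279 genes, called at 0.05. The fit had 4 residual degrees of freedom and a biological coefficient of variation of 15.9%. An SE is the log2 fold change divided by the root of F. CPM are scaled by TMM. Alternatives used limma 3.58.1 (voom) and DESeq2 1.42.0, other scaling factors, filters, length and GC corrections, transcript subsets and each library left out. The pipeline was tested on simulated data. A permutation of 3 against 3 libraries cannot give a two-sided p under 0.1, so none is printed.

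The members, the lists and the naming rule were chosen with earlier results of these data known. The rule names ATF3, the 6 largest called falls and rises, the 5 highest mean TPM, every tested paralog, its parent, the stalk and 5S genes, and up to 3 called genes per list with the smallest p. Some single genes are not reported here, though they are in the counts. Counts over lists are descriptions beside the same count over all genes.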

Additional observations from a re-analysis of the deposited data

How the results depend on the processing

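The count of ribosomal protein genes called lower was 32 in the edgeR fit, 11 with an offset for effective length, and between 0 and 54 with 1 library left out. It was 47 by DESeq2 and 48 with the GC trend removed, and between 26 and 33 under the other settings without a block. The count called higher was 1, RPS27L, with library totals alone, by DESeq2, with the GC trend removed, with the replicate block and without wild-type replicate 2, and between 0 and 1 with 1 library left out. Over all settings the median log2 fold change ran from -0.34 to -0.18 and 73 to 78 changes were negative. The difference between the large and small subunit medians (-0.0073) ran from -0.026, without wild-type replicate 2, to 0.00048 with 1 library left out. The share of TPM differed by -4.09 points between ATF3 knockout and wild type, by -4.82 to -2.92 with 1 library left out and by -1.73 as a share of reads. In both units the ATF3 knockout mean was 0.86 of the wild-type mean, so the relative change was the same. The log2 ratio of large over small subunit TPM differed by 0.03, by 0.02 to 0.04 with 1 library left out, by 0.019 in summed reads and by -0.028 in mean log2 CPM, where the sign reversed. The non-coding share differed by -0.00 points in reads (-0.11 to 0.14 with 1 library left out) and by 0.31 in TPM, the opposite sign. Of 48 genes named by the rule, 14 lost their call with the effective length offset, and 6 gained and none lost a call by DESeq2. The cause of these shifts was not tested.

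The labels state no pairing of libraries. Same-numbered libraries correlated at -0.07, 0.14 and 0.27 in their deviations from the group means, which does not settle whether they were paired. A fit with the replicate block called 38 lower and 1 higher. Without the scaffold copies, an alternative chosen after seeing the data as were the GC correction, the DESeq2 fits without single wild-type libraries and the share without RPS18, 30 of 80 genes were called lower. RPS18, whose reads lie almost wholly on those copies, stood at -1.68 there (edgeR adjusted p = 0.496).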
